A study of Mus musculus with 15 samples.

Results

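The comparison described here set the skin lesions of placebo-treated mice against the skin directly around them, called perilesional. It used 6 of the 15 libraries of the series, 3 lesional and 3 perilesional, chosen by their labels. All mice were female SKH1, a hairless strain, and were 6 to 8 weeks old when exposed to ultraviolet B; doses of 500 J/m2, given 5 days a week over 10 weeks, were used to raise actinic keratoses, the precancerous scaly patches of sun-damaged skin. The placebo mice received 0.25 g of a placebo cream on 5 days per week, and RNA was also taken from their irradiated skin away from lesions (non-lesional) and from skin not exposed to UV. Lesions of mice given 0.25 g of GZ21T cream on the same schedule made the fifth group, with 3 libraries per group.

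The authors' deposited tables used here give fold changes between groups. Depth and the value of each library are therefore unknown, and each value below is a difference between group estimates with its standard error (SE). Without levels, the tissue could not be checked against its markers, although the basal keratins Krt5 and Krt14 and the suprabasal keratins Krt1 and Krt10 were all among the genes tested. The headers of the tables name no comparison of lesional with perilesional skin. The deposited lesional table is named as perilesional against lesional, but its headers read lesional over "back", and the headers were followed. In that table, 271 of 1195 genes at exactly 0 in perilesional over non-lesional skin were negative, which a table with either of those sites as its denominator could not hold for genes without reads. Of 1423 genes at exactly 0 in non-lesional over "back" skin, 704 were positive and 0 negative there. "Back" was taken as the non-UV skin by elimination, since the labels do not use that word; the reading bears on the course over sites and cancels out of the lesional over perilesional difference. This difference was obtained on the log2 scale by subtracting the changes of non-lesional over non-UV skin and of perilesional over non-lesional skin from the change of lesional over non-UV skin. The labels number the placebo libraries 1 to 3 at every site but do not say whether equal numbers mean the same mouse. A pairing of sites by mouse could therefore not be taken into account. Nor do the labels state that the 3 libraries of a group come from separate animals, so the p-values may measure technical spread only. In bulk tissue, fewer cells of a type and less RNA per cell cannot be told apart.

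The epidermis renews itself from a basal layer, whose cells divide, move outward and turn into a cornified layer of dead, cross-linked envelopes. Late envelope proteins of the LCE, SPRR, loricrin and filaggrin families are encoded side by side in the epidermal differentiation complex. Keratinocyte growth is driven by ligands of the epidermal growth factor receptor family, and stressed keratinocytes release prostaglandins, cytokines and matrix-degrading proteases.

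Of 15187 genes tested, 81 differed between lesional and perilesional skin at a Benjamini-Hochberg adjusted p under 0.05, which is 0.533% of them. Lesions were higher for 47 genes (0.309%) and lower for 34 (0.224%). Late cornified envelope genes made up 12 of the 34 genes called lower, while the genes called higher included growth factor ligands, cytokines, proteases and genes of the low-oxygen response. At an unadjusted p under 0.05, 1590 genes differed (10.5%). The median change was 1.92 on the log2 scale among genes called higher and -1.58 among genes called lower. The median of all genes tested was 0.05 and 55.2% of them were positive; after subtracting that median, 35 genes were called higher and 43 lower. The median SE was 0.33, and at that SE a gene needed a log2 change of 1.22 in size to be called, so smaller differences were mostly not detectable with these libraries. The calls also depended on how the SE was derived. With the null spread of the test statistic estimated from all genes, 12 calls were kept, 2 higher and 10 lower, and with the 3 deposited squared SEs summed instead of combined, 0 genes were called by the same Wald test, against 121 at an unadjusted p under 0.05.

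**Figure D1:**
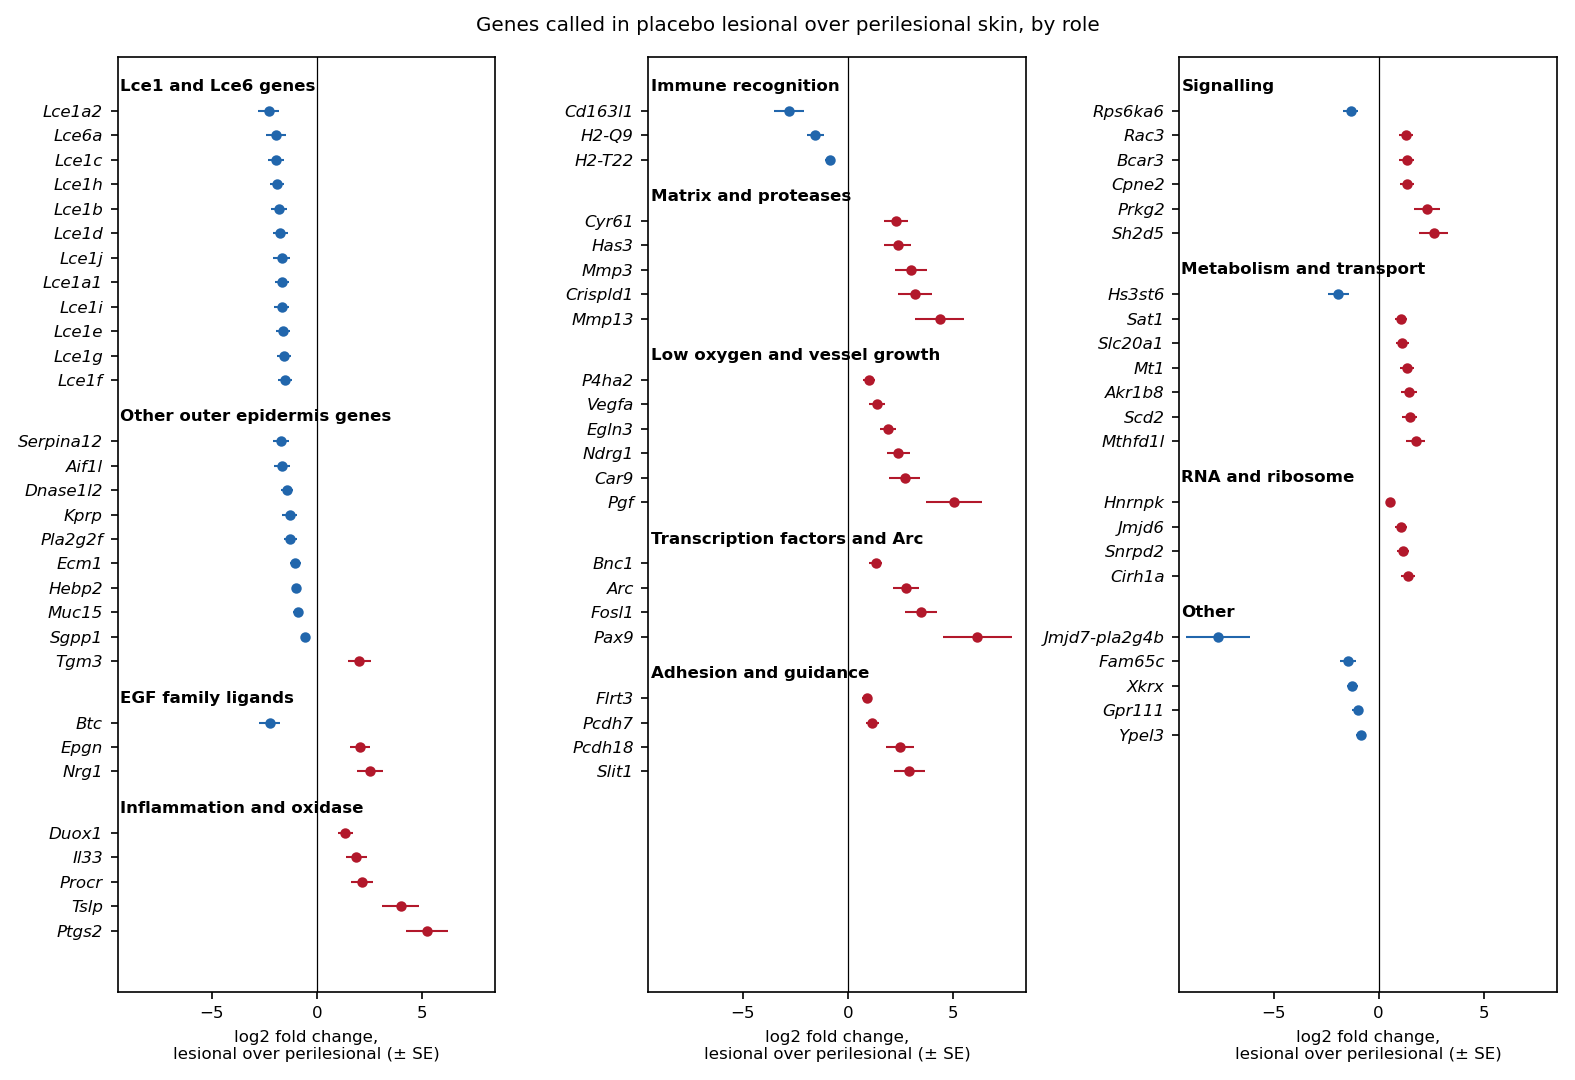
Log2 fold change of lesional over perilesional skin (x axis) with its SE (bars) for the called genes, grouped by role; red points were higher and blue points lower in lesions. Igfn1, at 13.80, 1 other gene and the 5 called genes without an assigned role are not drawn. The Lce1 and Lce6 genes lie together between -2.29 and -1.50, while the points of the inflammation, matrix and low-oxygen groups lie to the right of 0.

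The Lce1 and Lce6 genes encode small proteins added late to the cornified envelope. All 15 listed members were tested and all 15 had negative changes, with a median of -1.75, against 0.05 over all genes tested. Of these, 12 were called lower in lesions, against 0.224% of all genes. They were Lce1a1, Lce1a2, Lce1b, Lce1c, Lce1d, Lce1e, Lce1f, Lce1g, Lce1h, Lce1i, Lce1j and Lce6a. Lce1a2 was 4.89-fold lower in lesional than in perilesional skin (log2 -2.29 ± 0.50 SE, Benjamini-Hochberg adjusted p = 0.0039), and Lce1f, the member with the smallest called change, was 2.83-fold lower (log2 -1.50 ± 0.33 SE, Benjamini-Hochberg adjusted p = 0.0035). The changes of Lce1k (-2.24 ± 0.65), Lce1l (-1.53 ± 0.49) and Lce1m (-1.92 ± 0.63) were of like size with larger SEs and did not pass the test. These genes are close copies of each other, and how reads shared between copies were counted is not given in the sources used here, so the value of any single copy is uncertain. The called members lie in one block at chr3:92620081-92790514 (GRCm38, GENCODE M21).

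The stretches just upstream of these genes are alike too. RefSeq promoter sequences (GRCm38.p6) were at hand for 10 of the 11 called Lce1 genes. Over the 250 bases before the gene start, the 45 pairs of these windows had a median identity of 73.5% (range 66.4% to 85.9%). The longest runs held by at least 8 of the 10 windows were looked for, so that share was set in advance. There were 3 such runs of 11 bases, and the first in alphabetical order, ACTGTCTCACA, was in 8 windows. Searched on both strands, it was present in 13 of 27025 genes with a window (0.0481%). Searched on the strand of the gene only, it was in 0 of the 9 windows of Lce1k, Lce1l, Lce1m and the Lce3 genes. The run was found from the called Lce1 windows themselves and no factor is assigned to it. The windows of Lce1h and Lce1a1, which hold it (in capitals), and of Lce1c, which does not, are shown 5′ to 3′ to let the copies be compared; they lie at chr3:92765066-92765315 (minus strand), chr3:92648308-92648557 (minus strand) and chr3:92678997-92679246 (plus strand).
Lce1h: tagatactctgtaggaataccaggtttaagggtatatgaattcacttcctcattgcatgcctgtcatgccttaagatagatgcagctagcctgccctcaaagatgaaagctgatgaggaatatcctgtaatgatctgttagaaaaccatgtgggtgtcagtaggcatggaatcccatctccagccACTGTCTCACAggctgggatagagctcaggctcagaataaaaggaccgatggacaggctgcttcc
Lce1a1: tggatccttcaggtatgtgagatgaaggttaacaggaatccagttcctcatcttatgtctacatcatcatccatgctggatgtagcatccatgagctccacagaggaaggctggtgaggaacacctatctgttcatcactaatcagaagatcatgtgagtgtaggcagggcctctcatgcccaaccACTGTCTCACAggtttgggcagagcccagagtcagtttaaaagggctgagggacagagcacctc
Lce1c: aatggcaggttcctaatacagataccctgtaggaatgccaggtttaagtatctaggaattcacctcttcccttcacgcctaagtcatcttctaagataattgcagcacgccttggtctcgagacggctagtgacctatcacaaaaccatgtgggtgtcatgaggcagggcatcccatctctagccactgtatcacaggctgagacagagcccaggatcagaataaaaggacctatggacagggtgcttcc

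The Lce1 genes did not follow a steady course from unexposed skin to lesion. In the authors' deposited table of non-lesional over non-UV skin, which holds neither lesional nor perilesional libraries, the 12 genes had log2 changes of 0.88 to 1.55, and 4 of them, Lce1e, Lce1f, Lce1g and Lce1h, were called higher, against 1.13% of all genes tested there. Their changes in the authors' deposited table of perilesional over non-lesional skin were -0.17 to 0.57, with 0 called (against 0.112% of all genes; DESeq2 adjusted p, lowest 0.861). They were -0.84 to 0.15 in the authors' deposited table of lesional over non-UV skin, again with 0 called, against 18.3% of all genes (DESeq2 adjusted p, lowest 0.193). The last 2 tables share perilesional or lesional libraries with the comparison above. Non-lesional irradiated skin thus held more of the 4 called transcripts than unexposed skin, and the lesional estimates did not pass the authors' test in either direction. Lce1h shows this course: its log2 change from non-UV skin was 1.55 in non-lesional skin and -0.04 in lesional skin in the authors' deposited tables, and the sum of the deposited steps put perilesional skin at 1.84.

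**Figure D2:**
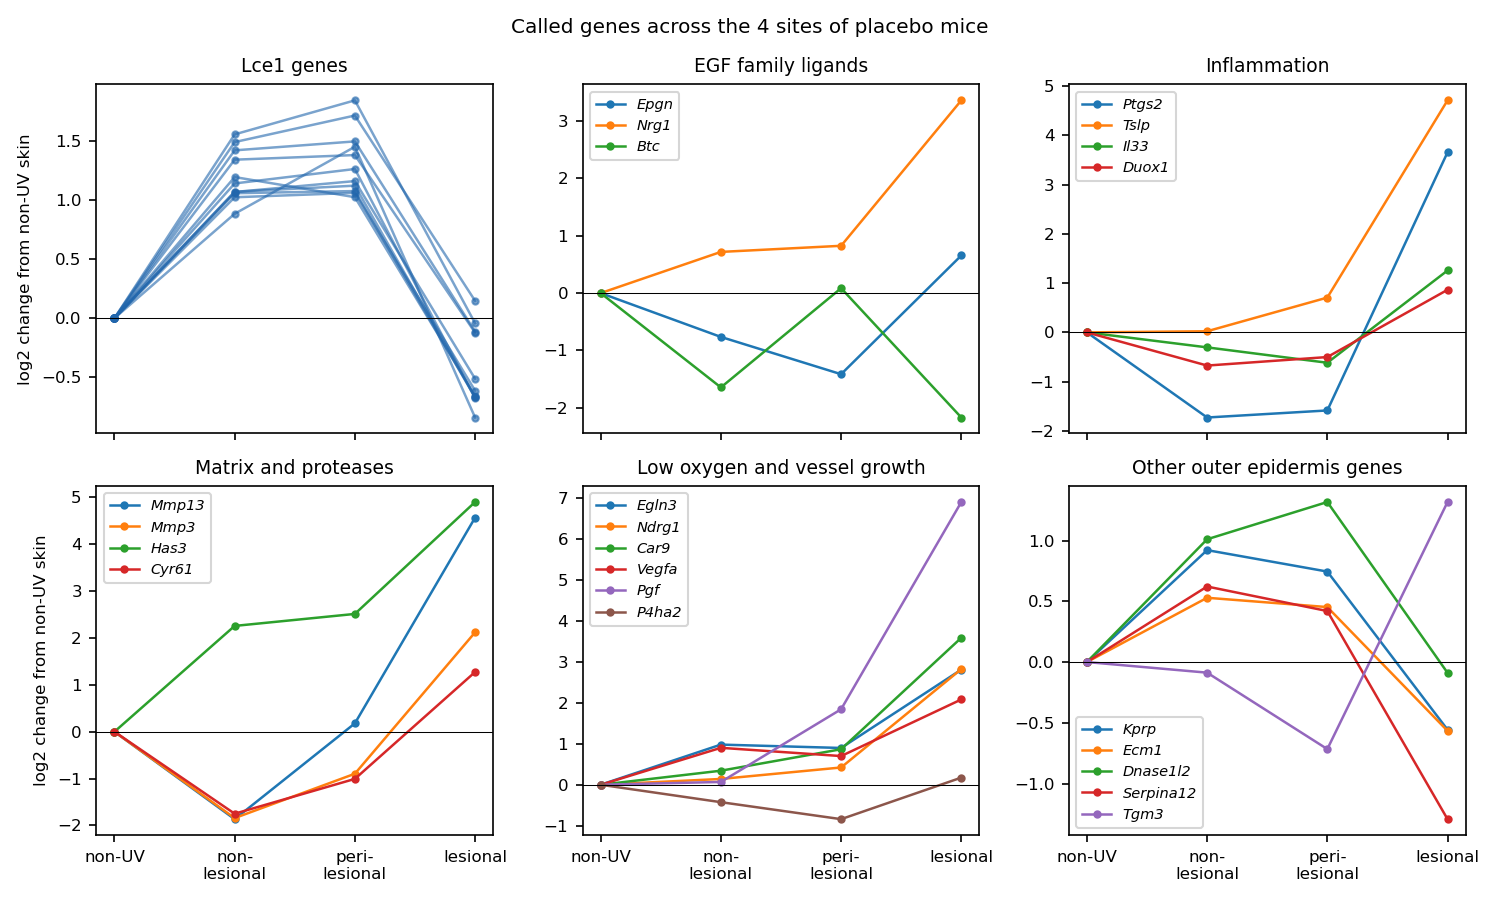
Log2 change from non-UV skin (y axis, a separate scale in each panel) at the 4 sites of placebo mice (x axis) for called genes of 6 groups; each line is a gene and non-UV skin is 0 by definition, with no error drawn. The 11 Lce1 lines sit above 0 in non-lesional and perilesional skin and between -0.84 and 0.15 in lesions, and the lines of Ptgs2, Tslp, Mmp13 and Pgf have their highest point in lesions.

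Outside the Lce block, Kprp was the single gene of the epidermal differentiation complex that was called. Between the S100 genes at either end of the complex, at chr3:90511034-93564643 (GRCm38, GENCODE M21), 58 of 75 annotated protein-coding genes were tested. Of these, 13 were called lower in lesions (the 12 Lce genes and Kprp, a proline-rich protein of the cornified layer), against 0.224% of all genes, and 0 were called higher by the Wald test, against 0.309%. The median over the 58 was 0.16, with 31 positive and 27 negative. The Lce3 genes, a cluster of the same family that is known for induction in damaged and psoriatic skin, had positive changes in all 5 members tested (median 1.73), and the small proline-rich protein genes in 11 of 12 (median 1.88), with 0 called in either list by the Wald test. Sprr2g was at 4.37 ± 1.41 (Benjamini-Hochberg adjusted p = 0.142), Lce3d at 2.53 ± 1.24 and Lce3c at 1.73 ± 1.15 on the log2 scale. At an unadjusted p under 0.05, 4 of the 12 small proline-rich protein genes and 1 of the 5 Lce3 genes were higher, against 6.99% of all genes.

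**Figure D3:**
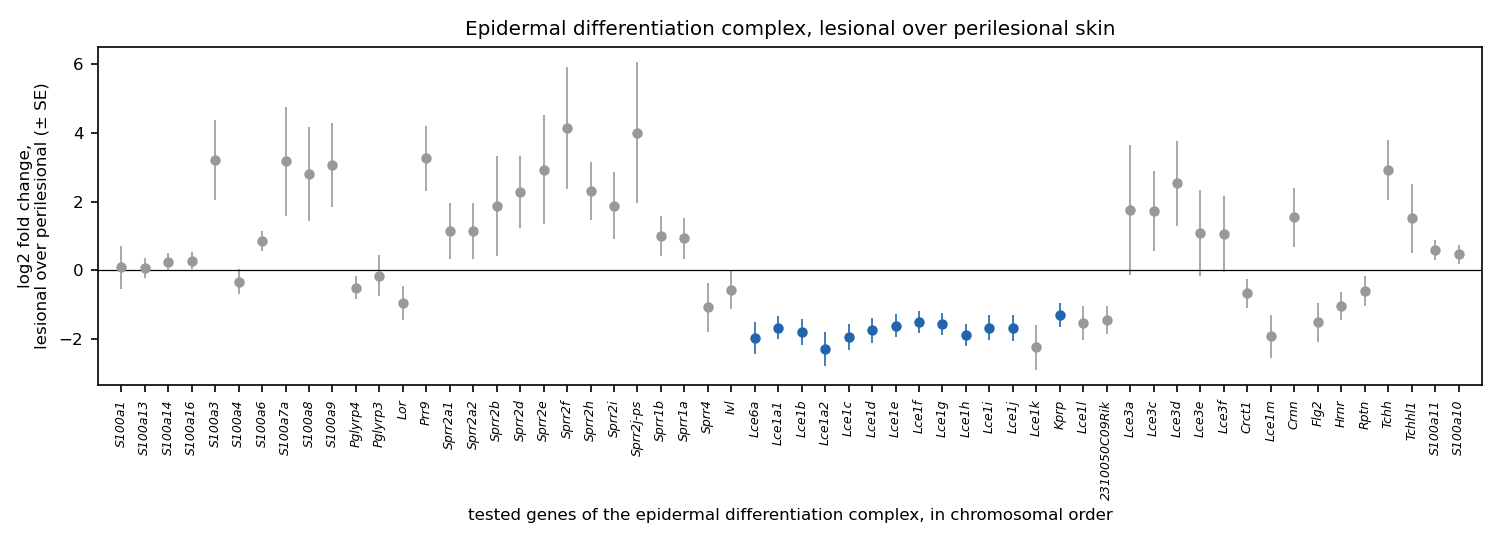
Log2 fold change of lesional over perilesional skin with its SE (y axis) for the 58 tested genes of the epidermal differentiation complex, evenly spaced in chromosomal order (x axis); blue points were called lower and grey points did not pass the test. The Lce1 genes form a run below 0, while the neighbouring Sprr and Lce3 genes lie mostly above 0 with wide SEs.

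Of the other called genes, 10 grouped here with the outer epidermis were lower and 1 was higher. The group was made from called genes only, so no number tested stands beside these counts. Over all genes, 0.224% were called lower and 0.309% higher. Dnase1l2, a nuclease that breaks down DNA in cornifying keratinocytes, was 2.65-fold lower in lesions (log2 -1.41 ± 0.28 SE, Benjamini-Hochberg adjusted p = 0.0015). Serpina12, a serine protease inhibitor made in skin and fat, was 3.28-fold lower (-1.71 ± 0.38, Benjamini-Hochberg adjusted p = 0.0041). Aif1l, an actin-binding protein, fell by 1.66, Pla2g2f, a secreted phospholipase of the epidermis, by 1.26, and Ecm1, a secreted matrix protein of the epidermis and dermis, by 1.02 on the log2 scale. Kprp (-1.30), Hebp2 (-0.99), Muc15 (-0.91), a membrane mucin, and Sgpp1 (-0.55), a phosphatase of sphingosine 1-phosphate, were also called lower. Tgm3, a transglutaminase that cross-links envelope and hair proteins, was the gene called higher (2.03 ± 0.53, Benjamini-Hochberg adjusted p = 0.032). In the list of other cornified envelope genes, 1 of 32 tested members was called higher (against 0.309% of all genes) and 1 lower (against 0.224%). In that list, 25 were negative and the median was -0.63. At an unadjusted p under 0.05 by the Wald test, 11 of the 32 were lower, against 3.48% of all genes, and 1 was higher, against 6.99%. Krt80 (-0.98 ± 0.28), Krt1 (-0.93 ± 0.38), Krt10 (-1.02 ± 0.57), Lor, which encodes loricrin (-0.96 ± 0.49), and Ivl, which encodes involucrin (-0.57 ± 0.55), did not pass the test. With the median of all genes subtracted, Krt80 passed it (-1.03, Benjamini-Hochberg adjusted p = 0.041).

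Basal and stress keratins did not pass the test. Krt5 was at 0.47 ± 0.36 and Krt14 at 0.61 ± 0.35, both keratins of the basal layer, and Trp63, the basal transcription factor p63, at 0.27 ± 0.22. Krt6a, a keratin of wounded and hyperproliferative epidermis, was at 1.40 ± 0.51 (Benjamini-Hochberg adjusted p = 0.219), Krt6b at 1.17 ± 0.78 and Krt16 at 0.47 ± 0.45. Krt6a was already 2.69 higher on the log2 scale in the authors' deposited table of non-lesional over non-UV skin (DESeq2 adjusted p = 5.8e-05). Mki67, a marker of dividing cells, was at 0.20 ± 0.29 and Cdkn2a, the locus of the cell cycle inhibitor p16, at 0.63 ± 0.49 in lesional over perilesional skin.

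Ligands of the epidermal growth factor receptor family moved in both directions. Epgn, which encodes epigen, was 4.20-fold higher in lesions (log2 2.07 ± 0.47 SE, Benjamini-Hochberg adjusted p = 0.0058), and Nrg1, which encodes the ERBB3 and ERBB4 ligand neuregulin 1, was 5.80-fold higher (2.54 ± 0.62, Benjamini-Hochberg adjusted p = 0.0175). Btc, which encodes betacellulin, was 4.77-fold lower (-2.25 ± 0.48, Benjamini-Hochberg adjusted p = 0.003). Of the 12 receptors and ligands tested, 2 were called higher (against 0.309% of all genes) and 1 lower (against 0.224%), 10 were positive and the median was 0.67. Areg, which encodes amphiregulin (1.66 ± 0.54), and Hbegf, which encodes heparin-binding EGF (1.57 ± 0.56), had positive changes that did not pass the test, and neither did the receptors Egfr (0.34 ± 0.17), Erbb2 (-0.27 ± 0.24) and Erbb3 (0.01 ± 0.28, and -0.04 with the median of all genes subtracted). In the authors' deposited table of lesional over non-UV skin, where 18.3% of all genes were called in either direction, Nrg1 was called higher (3.36, DESeq2 adjusted p = 3.8e-05). Epgn was not (0.66, DESeq2 adjusted p = 0.334), and the sum of the deposited steps put its perilesional estimate at -1.41 from non-UV skin. The estimates of Btc also varied across sites. In the authors' deposited tables, Btc was called lower in non-lesional over non-UV skin (log2 -1.64, DESeq2 adjusted p = 0.0416, against 0.531% of all genes called lower there). It was also called lower in lesional over non-UV skin (-2.17, DESeq2 adjusted p = 0.00046). Its change of 1.73 in perilesional over non-lesional skin did not pass the authors' test (DESeq2 adjusted p = 0.099).

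Of genes with roles in inflammation and oxidant production, Ptgs2, Tslp, Il33, Duox1 and Procr were called higher in lesions. Ptgs2, the inducible cyclooxygenase that starts prostaglandin synthesis, had the smallest adjusted p of the genes called higher (log2 5.24 ± 1.01 SE, Benjamini-Hochberg adjusted p = 0.0011), and it was the single called gene of 19 in the prostaglandin pathway (against 0.309% of all genes called higher), whose median was -0.18. The downstream synthase Ptges (0.46 ± 0.30) and the receptor Ptger4 (-0.67 ± 0.29) did not pass the test. In the list of epithelial cytokines, 2 of 19 were called higher, again against 0.309%: Tslp and Il33, both alarmins released by epithelium. The median of that list was 0.70. Tslp was 16.1-fold higher (SE 0.88 on the log2 scale, Benjamini-Hochberg adjusted p = 0.0039) and Il33 3.66-fold higher (SE 0.50 on the log2 scale, Benjamini-Hochberg adjusted p = 0.039). Duox1, an oxidase that makes hydrogen peroxide at epithelial surfaces, was 2.58-fold higher (1.37 ± 0.34, Benjamini-Hochberg adjusted p = 0.022), and Procr, the receptor of activated protein C, 4.41-fold higher (2.14 ± 0.52, Benjamini-Hochberg adjusted p = 0.017). Il1b, a cytokine mostly of myeloid cells, was at 1.64 ± 0.72 and did not pass. The Wald test called 0 of 20 stress keratins and alarmins, with 8 higher at an unadjusted p under 0.05, and 0 of 29 chemokines, with 3 higher at that level, against 6.99% of all genes.

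Genes of lymphoid and antigen-presenting cells were lower or did not pass. Cd163l1, a scavenger receptor found on gamma-delta T cells in mice, was 6.91-fold lower in lesions (log2 -2.79 ± 0.72 SE, Benjamini-Hochberg adjusted p = 0.031). The non-classical class I genes H2-Q9 (-1.55 ± 0.40) and H2-T22 (-0.84 ± 0.22) were also called lower; H2-Q9 has near-identical neighbours, so its reads may be shared. H2-T22 was 0.87 higher on the log2 scale in the authors' deposited table of non-lesional over non-UV skin (DESeq2 adjusted p = 0.0179). Of 29 T and NK cell markers tested, 27 were negative with a median of -0.62 and 0 were called by the Wald test, with 6 lower at an unadjusted p under 0.05; Cd3g, a subunit of the T cell receptor complex, was at -1.21 ± 0.43. Of 22 antigen presentation genes, 20 were negative with a median of -0.35 and 0 were called by the Wald test, with 3 lower at an unadjusted p under 0.05. The background for that rule was 3.48% of all genes.

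The called proteases and the hyaluronan and matrix-associated genes grouped with them were higher in lesions, whereas the matrix protein gene Ecm1, described above with the outer epidermis, was lower. Mmp13, a collagenase, was 20.9-fold higher (log2 4.39 ± 1.16 SE, Benjamini-Hochberg adjusted p = 0.038) and Mmp3, which encodes stromelysin 1, 8.09-fold higher (3.02 ± 0.76, Benjamini-Hochberg adjusted p = 0.025). Mmp10, which encodes stromelysin 2, was at 5.53 ± 1.53 and just missed the threshold (Benjamini-Hochberg adjusted p = 0.053), as did Adamts1 (1.67 ± 0.48, Benjamini-Hochberg adjusted p = 0.065). Of 24 matrix proteases and inhibitors tested, 2 were called higher, against 0.309% of all genes, and the median was 0.75. Has3, a hyaluronan synthase of keratinocytes, was 5.23-fold higher (2.39 ± 0.65), Cyr61, a matrix-associated signalling protein induced by YAP, 4.86-fold higher (2.28 ± 0.57), and the secreted protein Crispld1 9.14-fold higher (3.19 ± 0.82). For Has3 a step was already present in the authors' deposited table of non-lesional over non-UV skin, at 2.26 on the log2 scale (DESeq2 adjusted p = 0.0427). For Mmp13, Mmp3 and Cyr61 the estimates in the authors' deposited table of that comparison were -1.87, -1.84 and -1.75, and none of them passed the authors' test.

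Genes of the low-oxygen response were the list with the most members called higher. Of 31 tested, 5 were called higher, against 0.309% of all genes, 30 were positive and the median was 0.96. At an unadjusted p under 0.05, 18 were higher, against 6.99% of all genes. Egln3, the oxygen-sensing prolyl hydroxylase PHD3, was 3.77-fold higher in lesions (log2 1.92 ± 0.40 SE, Benjamini-Hochberg adjusted p = 0.0022). Car9, a carbonic anhydrase that exports acid, was 6.61-fold higher (2.72 ± 0.74, Benjamini-Hochberg adjusted p = 0.0446), Ndrg1, a stress-response protein, 5.30-fold higher (2.41 ± 0.55, Benjamini-Hochberg adjusted p = 0.006), and P4ha2, a collagen prolyl hydroxylase, 2.02-fold higher (1.02 ± 0.27, Benjamini-Hochberg adjusted p = 0.038). Vegfa, the main angiogenic factor, was 2.61-fold higher (1.38 ± 0.38, Benjamini-Hochberg adjusted p = 0.0446), and the related Pgf, outside that list, 33.5-fold higher (5.06 ± 1.35, Benjamini-Hochberg adjusted p = 0.038). Of these 6 genes, 5 were called higher in the authors' deposited table of lesional over non-UV skin, against 18.3% of all genes called in either direction. P4ha2 was not (0.17, DESeq2 adjusted p = 0.697), and the sum of the deposited steps put its perilesional estimate at -0.84 from non-UV skin. With the median of all genes subtracted, 2 of the 31 passed, and Car9 (0.051), P4ha2 (0.053) and Vegfa (0.061) did not, on the adjusted p. In glycolysis, 16 of 17 genes were positive with a median of 0.82 and 0 were called by the Wald test, with 8 higher at an unadjusted p under 0.05, against 6.99%; Pfkl, a phosphofructokinase, was at 1.28 ± 0.39 and Eno1, an enolase, at 1.16 ± 0.36.

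**Figure D4:**
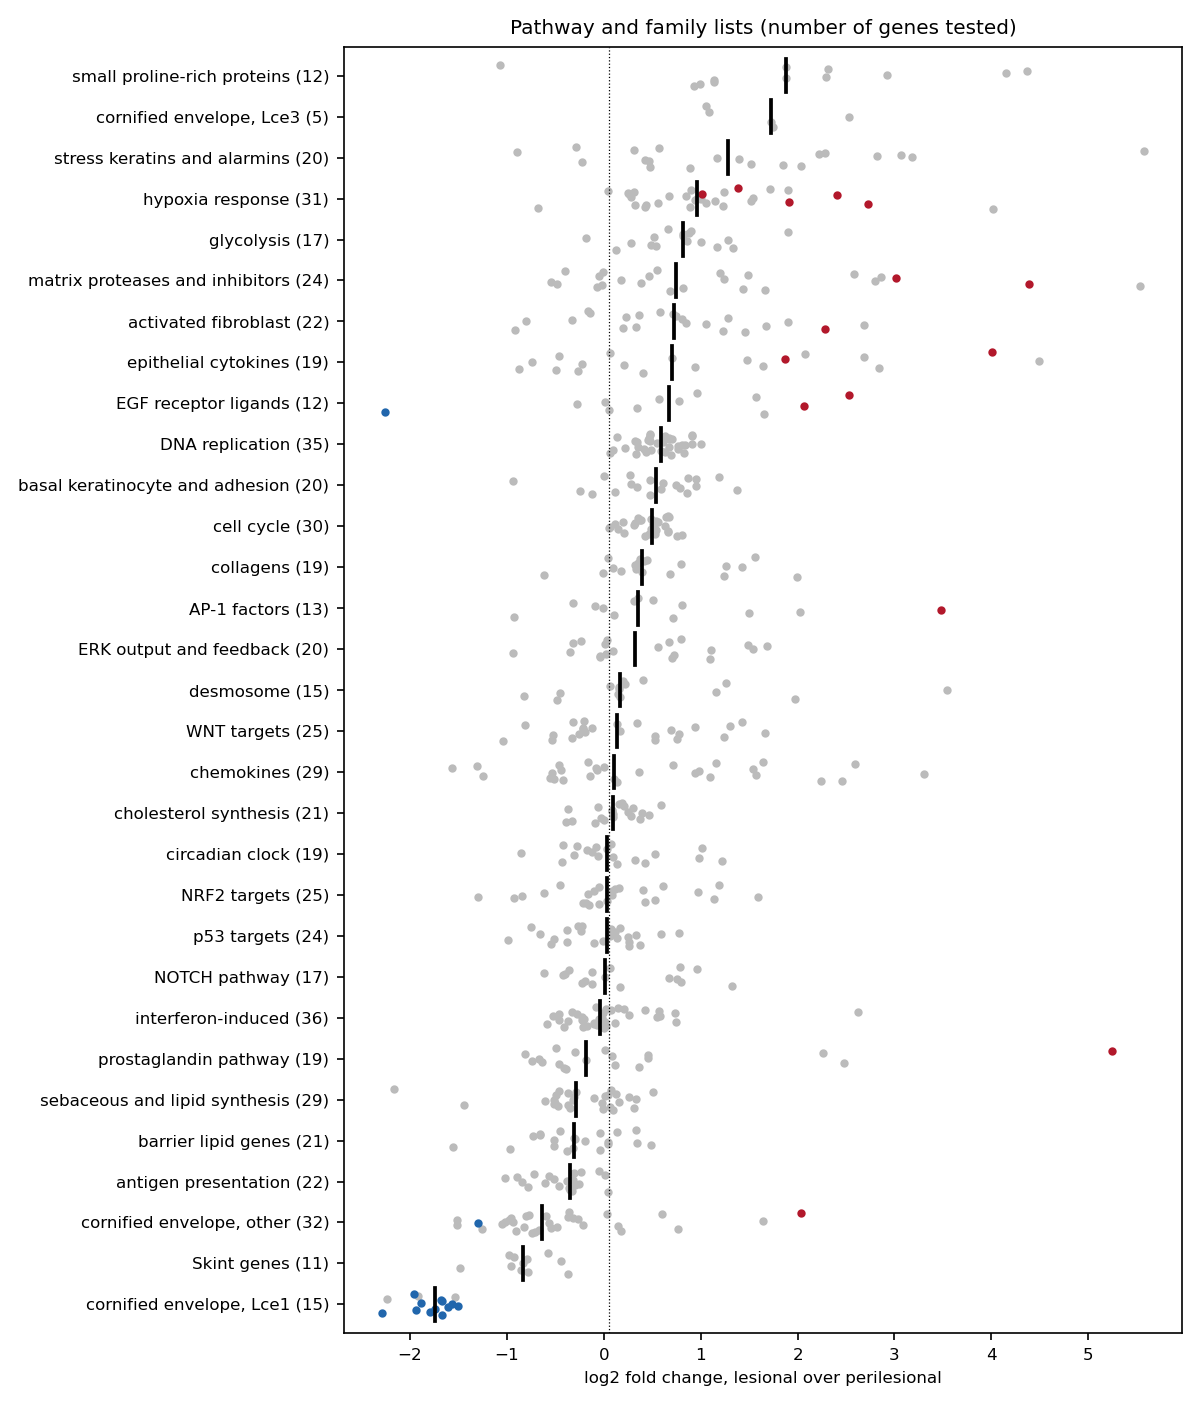
Log2 fold change of lesional over perilesional skin (x axis) for each tested member of the pathway and family lists (rows, with the number tested), ordered by their medians (thick bars); red and blue points were called higher and lower, and the dotted line is the median of all genes tested, 0.05. The Lce1 list has the lowest median, -1.75, and the small proline-rich proteins the highest, 1.88.

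The letters of 2 motifs were counted on both strands in the 250 bases before the gene start. Of the 81 called genes, 56 had a RefSeq window. The motifs were TGANTCA, the letters bound by AP-1 factors, and NCGTG, which holds the letters CGTG of the core bound by hypoxia-inducible factors. N was any base, so NCGTG is looser than that core, which has A or G first. TGANTCA was in 6 of the 56 called windows (10.7%), against 7.82% of all 27025 genes, and NCGTG in 57.1% of the called windows against 58.2%. Among genes called higher, 4 of 32 held TGANTCA, namely Car9, Mmp13, Mmp3 and Procr, and 22 of 32 (68.8%) held NCGTG. Both shares of called genes lie near the background, and a match describes letters only. The windows of Mmp3 (chr9:7445572-7445821, plus strand, TGANTCA starting at -46), Mmp13 (chr9:7272264-7272513, plus strand, at -35) and Car9 (chr4:43506776-43507025, plus strand, TGANTCA at -77 and NCGTG at -18) are shown. They were chosen because these members were called higher and hold the motifs, in capitals (GRCm38.p6, 5′ to 3′, positions relative to the gene start of the RefSeq window). GENCODE M21 starts Car9 at 43506966, inside its window, and the NCGTG match lies after that start.
Mmp3: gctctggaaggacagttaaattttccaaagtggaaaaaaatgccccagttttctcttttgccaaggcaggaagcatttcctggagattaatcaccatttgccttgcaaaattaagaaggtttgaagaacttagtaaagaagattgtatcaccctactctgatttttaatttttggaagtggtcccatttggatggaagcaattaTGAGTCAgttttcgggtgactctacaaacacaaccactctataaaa
Mmp13: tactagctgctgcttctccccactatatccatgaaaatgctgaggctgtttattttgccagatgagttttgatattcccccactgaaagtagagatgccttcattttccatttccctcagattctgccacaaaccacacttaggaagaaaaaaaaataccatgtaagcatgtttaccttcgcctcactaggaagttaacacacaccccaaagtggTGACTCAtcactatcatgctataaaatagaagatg
Car9: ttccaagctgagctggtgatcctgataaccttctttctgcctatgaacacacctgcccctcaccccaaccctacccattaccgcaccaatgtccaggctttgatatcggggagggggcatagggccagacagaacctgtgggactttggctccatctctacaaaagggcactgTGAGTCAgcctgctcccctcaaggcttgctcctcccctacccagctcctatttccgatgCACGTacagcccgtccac

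Among transcription factors, Fosl1, the AP-1 subunit FRA1, was 11.2-fold higher in lesions (log2 3.48 ± 0.75 SE, Benjamini-Hochberg adjusted p = 0.0035) and was the single called gene of 13 AP-1 factors (against 0.309% of all genes called higher), whose median was 0.35. Fos (1.50 ± 0.64) and Junb (0.80 ± 0.35) did not pass the test. Pax9, a developmental factor of foregut and oral epithelium, was at 6.16 ± 1.64 and Bnc1, which encodes basonuclin 1 of basal keratinocytes, at 1.33 ± 0.30. Arc, an immediate early gene best known from neurons, was 6.80-fold higher (2.76 ± 0.63, Benjamini-Hochberg adjusted p = 0.006). Pax9, Bnc1 and Arc were also called higher in the authors' deposited table of lesional over non-UV skin, against 18.3% of all genes called in either direction. Fosl1 was not (1.57, DESeq2 adjusted p = 0.124), and the sum of the deposited steps put its perilesional estimate at -1.92 from non-UV skin. Cell surface and guidance genes were called higher too: Slit1, a ligand of Robo receptors, was 7.68-fold higher (2.94 ± 0.75), the protocadherins Pcdh18 and Pcdh7 were 5.59-fold and 2.26-fold higher, and the adhesion protein Flrt3 was 1.87-fold higher. For Slit1 the authors' deposited table of non-lesional over non-UV skin already had a log2 change of 3.44 (DESeq2 adjusted p = 0.0205).

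The remaining called genes with a known role were spread over signalling, metabolism and RNA handling. Higher in lesions were the adaptors Sh2d5 (log2 2.62) and Bcar3 (1.33), the cGMP-dependent kinase Prkg2 (2.30), the calcium-binding copine Cpne2 (1.34) and the small GTPase Rac3 (1.31), while the ribosomal S6 kinase gene Rps6ka6 was lower (-1.34). Of metabolic genes, the mitochondrial folate enzyme Mthfd1l (1.77), the desaturase Scd2 (1.48), the aldo-keto reductase Akr1b8 (1.46), the metallothionein Mt1 (1.34), the phosphate carrier Slc20a1 (1.13) and the polyamine enzyme Sat1 (1.06) were higher, and Hs3st6, a heparan sulfate sulfotransferase, was lower (-1.92). A further 4 genes of RNA processing were higher: Cirh1a (1.40), Snrpd2 (1.16), Jmjd6 (1.06) and Hnrnpk (0.55). Igfn1, at 13.80 ± 3.63, and Jmjd7-pla2g4b, a read-through gene that overlaps its neighbours, at -7.65 ± 1.53, have the size a fit gives when a group has almost no reads, and are not usable as folds. Gpr111, an adhesion receptor (-0.999), Xkrx (-1.25), Ypel3 (-0.84) and Fam65c (-1.47) were lower, and the last 5 of the 81 called genes have provisional symbols. Igfn1 was at -12.75 in perilesional over non-lesional skin and at -0.51 in lesional over non-UV skin in the authors' deposited tables.

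Several marker lists of other cell types had medians far from that of all genes, with few calls. Hair follicle genes were positive in 31 of 37 with a median of 3.07 and 0 called by the Wald test, with 19 higher at an unadjusted p under 0.05, against 6.99% of all genes; their median was -3.90 in the authors' deposited table of perilesional over non-lesional skin and -2.39 in that of lesional over non-UV skin. Red blood cell genes were positive in 7 of 7 (median 4.68, from 0.33 to 5.03), with 5 higher at an unadjusted p under 0.05, against the same 6.99%. Neutrophil genes were positive in 8 of 9 (median 1.64), mast cell and eosinophil genes in 10 of 10 (median 1.30) and endothelial genes in 24 of 26 (median 1.15), while adipocyte genes had a median of -0.53, fibroblast genes of 0.15 and macrophage genes of 0.02. Across the marker lists Cd163l1 was the single called gene. The part of these cell types in the gene changes above was not tested.

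**Figure D5:**
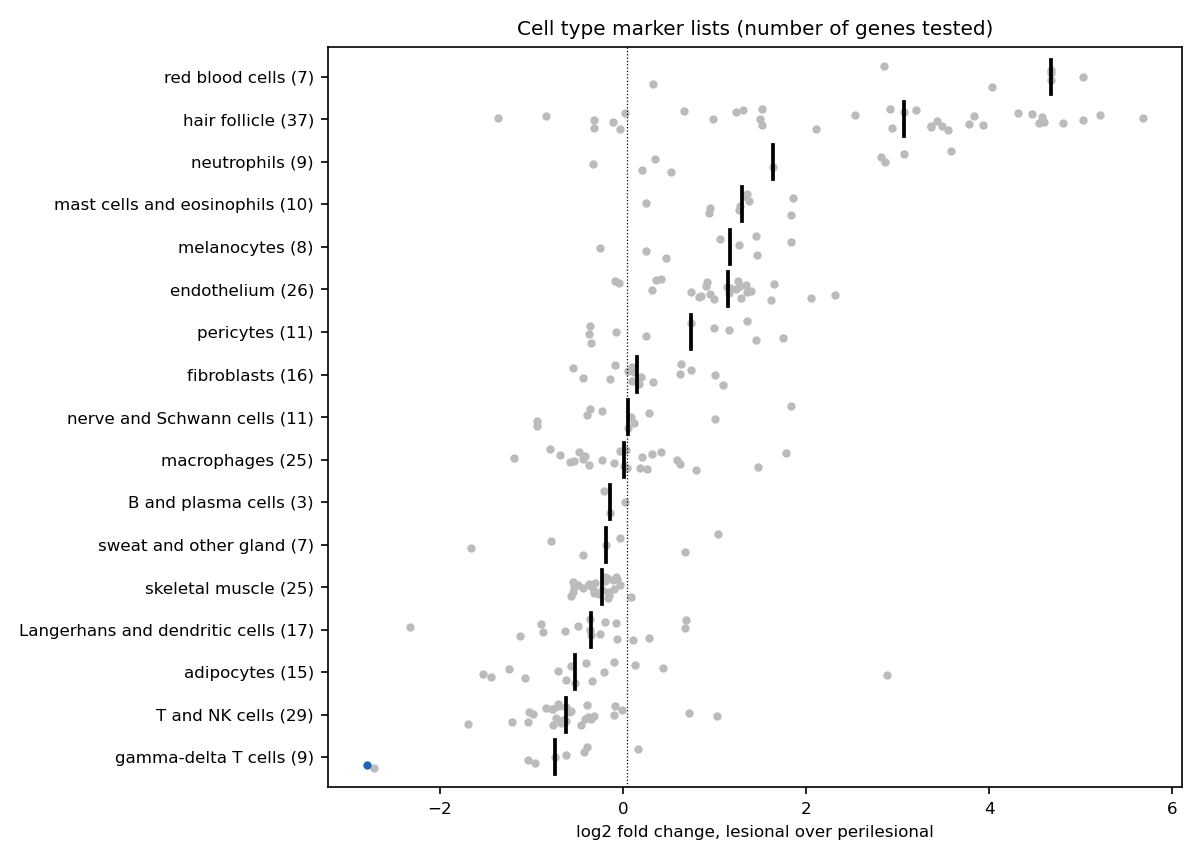
Log2 fold change of lesional over perilesional skin (x axis) for each tested member of the cell type marker lists (rows, with the number tested), ordered by their medians (thick bars); the blue point, Cd163l1, was called lower and grey points did not pass the test. Red blood cell and hair follicle genes have the highest medians, 4.68 and 3.07, and gamma-delta T cell and T and NK cell genes the lowest, -0.74 and -0.62.

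Placebo lesions are also one side of the deposited comparison of GZ21T with placebo lesions, so its values share libraries with those above and are given only beside them. The authors' deposited table runs as placebo over GZ21T, and its signs were turned here to GZ21T over placebo. Turned this way, the 12 Lce genes had log2 changes of 1.16 to 1.83 in the authors' deposited table. Epgn was at -2.37, Ptgs2 at -3.53, Tslp at -3.95, Egln3 at -2.17, Slit1 at -3.52 and Has3 at -2.27 in the authors' deposited table, each with a DESeq2 adjusted p under 0.05. Mmp13 was at -2.66 and Vegfa at -0.52 in the authors' deposited table, with DESeq2 adjusted p-values of 0.144 and 0.412. The single genes named here were picked from the called genes, and the share of all genes passing in that comparison was not counted. Of the 47 genes called higher in lesions, 38 had an adjusted p there. Pgf, Car9, Nrg1, Crispld1 and Pax9 were among those without one, for a reason the sources at hand do not give.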

How the data were processed

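Bulk RNA sequencing of mouse skin was compared. Per the labels' protocols, an RNeasy kit gave the RNA and TruSeq Stranded Total RNA reagents the libraries. Trim Galore, DESeq2 and the builds GRCm38 and mm10 are named per the submitters' processing notes; for the aligner, counter, annotation, versions and model formula the entry is "not given in the sources" at hand. The deposited tables hold, per gene, the authors' log2 fold change, their Wald statistic (a score), p-value and adjusted p-value, with no counts, so depth is unknown.

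Tables were joined on gene symbol after 25 date-like symbols and any symbol listed more than once were removed. This left 24027 symbols, of which 5199 had no fold change. Dividing each log2 fold change by its Wald statistic gave its SE. The derived log2 change was lesional over non-UV minus non-lesional over non-UV minus perilesional over non-lesional. Its variance was the squared SE of the first minus that of the second plus that of the third, exact if a single fit with group as its only term made the tables. For 2165 genes flat in all tables, the median SE ratios to the lesional table were 1.005 and 0.985, and 0 tested genes had a variance at or below 0.

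Genes tested had an adjusted p in the lesional and the perilesional table. P-values were two-sided normal tails of the Wald ratio, Benjamini-Hochberg adjusted over 15187 genes, threshold 0.05 (Python 3.11.15, numpy 2.4.6, pandas 2.3.3, scipy 1.17.1). The procedure was tested on simulated data. Genes could be named if called with a proper symbol, if among the 4 smallest adjusted p of a list, or if among preset epidermal genes; Flg is not analysed here, and 1 called gene is not reported here. Members and all 48 lists were chosen with earlier results of these data known. Gene positions come from GENCODE M21, unique for 74 of 81 called genes. Motif positions are counted from the gene start of the RefSeq windows. Alternatives to the SE, the centring and the filter were tried.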

Additional observations from a re-analysis of the deposited data

How the results depend on the processing

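Calls were lost under some of the alternatives run. Only subtracting the median, 0.05, moves the log2 changes, and the smallest called size was 0.55, so no called gene could change direction. Erbb3, not called, was at 0.01 and at -0.04 with the median subtracted. The total of 81 genes (47 higher, 34 lower) became 53 (25 higher, 28 lower) with the largest of the 3 deposited SEs, 12 (2 higher, 10 lower) with the null spread estimated from all genes, and 0 (0 and 0) with the summed squared SEs, where 121 genes had an unadjusted p under 0.05. It was 78 with the median subtracted, of which 69 were among the 81, 96 for the 14121 genes with an adjusted p in all 3 tables, and 80 of 16791 with no filter on low counts. The larger SEs with the largest or the summed SEs follow from their construction; the cause of the other losses was not tested. Among the 12 genes kept with the estimated null spread were Dnase1l2, Egln3, Hebp2, Jmjd7-pla2g4b, Ptgs2, Lce1a1, Lce1b, Lce1c, Lce1d, Lce1g and Lce1h. Of the Lce1 and Lce6 list, 12, 6 and 0 genes were called with the largest SE, the estimated null spread and the summed squared SEs, and of the low-oxygen list 2, 1 and 0, against 12 and 5. No paired analysis was possible because the deposited tables used here hold no values per library, and for the same reason leaving out each replicate was not run.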

Other observations

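Genes of cell division had small positive changes that did not pass the test. All 35 DNA replication genes tested were positive in lesional over perilesional skin, with a median log2 change of 0.59 and 10 higher at an unadjusted p under 0.05, against 6.99% of all genes. All 30 cell cycle genes were positive with a median of 0.50 and 1 at that level, a share below the same background; 0 of either list were called by the Wald test. Mcm4, a subunit of the replicative helicase, was at 0.91 ± 0.39 (SE), and Birc5, which encodes survivin, at 0.81 ± 0.37. The Skint genes, expressed by keratinocytes and known from the selection of epidermal gamma-delta T cells, were negative in all 11 tested members, with a median of -0.84, 0 called by the Wald test and 3 lower at an unadjusted p under 0.05, against 3.48% of all genes; Skint3 was at -0.95 ± 0.32. Genes of the same list share libraries, so their common sign is a description. Lists of interferon-induced genes (median -0.03), p53 targets (0.03), NRF2 targets (0.03) and NOTCH pathway genes (0.01) lay near the median of all genes, 0.05, and held 0 calls by the Wald test.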
